A study of Homo sapiens with 6 samples.

Results

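TMEM74 and 9 genes of autophagy initiation were examined on Affymetrix arrays of RNA from cells labelled HCT116, a human colorectal carcinoma line. The genes were chosen by name: TMEM74, the ULK1 kinase complex genes ULK1, ULK2, ATG13, ATG101 and RB1CC1, and the class III PI3-kinase (PI3KC3) genes BECN1, PIK3C3, ATG14 and UVRAG. All of their probe sets that the platform annotation assigns to a single gene were taken, which gave 29 of the 44988 single-gene probe sets and 10 of the 18132 genes measured. The study set 3 arrays of cells labelled CSF3 against 3 arrays of cells labelled Ctrl (control treatment). CSF3 is granulocyte colony-stimulating factor. Both groups are labelled as the same cell line, grown per the design text in RPMI-1640 with 10% serum. The identity of the line rests on that label and was not tested beyond the marker signals given below. Whether CSF3 was added as protein or expressed from a construct, for how long, and whether replicates were separate cultures is not given in the labels, so a p-value below sets a difference against the spread of these 3 arrays a group, part or all of which may be technical. In its title the series names p65, a subunit of NF-κB.

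Autophagy encloses cell material in a double membrane and delivers it to the lysosome. The ULK1 complex, in which the kinase ULK1 or its relative ULK2 is held by ATG13, ATG101 and the scaffold FIP200 (encoded by RB1CC1), receives nutrient signals and starts the process. It activates the PI3KC3 complex, whose lipid kinase VPS34 (PIK3C3) and regulator Beclin 1 (BECN1) make the lipid PI3P on the growing membrane. ATG14 and UVRAG join Beclin 1 in alternative forms of that complex, the one for autophagosome formation and the other for endosome and autophagosome maturation. TMEM74 is a transmembrane protein of lysosomes and autophagosomes that promotes autophagy when overexpressed and binds ATG16L1. RNA levels report neither the proteins nor autophagy itself.

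Some facts of the arrays bear on every value below. Values are the deposited log2 signals, a change is CSF3 minus Ctrl on that scale, and a gene is represented by its brightest probe set unless another is named. Signals of different probe sets cannot be set against each other, and no detection calls were used. The median change of all genes was 0.16, and it depended on signal: in 4 bins of 4533 genes each it was 0.29 in the dimmest, then 0.35, -0.09 and, in the brightest, -0.15. Hybridisation control probe sets, which measure spiked transcripts, were higher on the CSF3 arrays by 1.53, and poly-A control probe sets by 1.52. The 3' minus 5' gap of GAPDH was 0.682 ± 0.003 on CSF3 arrays and 0.306 ± 0.007 on Ctrl arrays (SD, n = 3 each), and the ACTB gap was 1.94 ± 0.02 on CSF3 arrays and 1.34 ± 0.03 on Ctrl arrays. By exact permutation (two-sided) all 4 differences gave p = 0.1, below which 3 arrays a group cannot go, and their part in the results was not tested. CSF3 itself rose by 1.12 ± 0.14 (SE, limma adjusted p = 0.000371). Of 10 colon epithelial markers 3 lay above the median signal of all genes, among them KRT18, whereas EPCAM and CDH1 averaged 3.30 and 2.24 on CSF3 arrays and 3.63 and 2.20 on Ctrl arrays, below the all-gene median of 4.46. Of 7 leukocyte markers only CD68 lay above that median, and none of 8 fibroblast and endothelial markers did. The mean signal of the fibroblast and endothelial list was 3.05 to 3.08 on CSF3 arrays and 2.49 to 2.52 on Ctrl arrays, and that of the leukocyte list 3.40 to 3.46 on CSF3 arrays and 3.22 to 3.25 on Ctrl arrays. The epithelial list had 3.58 to 3.69 on CSF3 arrays and 3.53 to 3.58 on Ctrl arrays. Within it KRT8 fell by 1.32 ± 0.09 (limma adjusted p = 2.98e-05), on 8 probe sets from -1.87 to -0.76, and EPCAM fell. KRT18, KRT19, KRT20, CDX1 and CDX2 rose by 0.22 to 0.47, but the second probe sets of KRT18 and CDX1 gave -0.09 and 0.03. What part the marker signals have in the results was not tested.

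The 10 genes divided. TMEM74, ULK1 and ATG101 rose in CSF3 cells, while RB1CC1, ULK2, PIK3C3, ATG13, BECN1 and ATG14 fell, and UVRAG did not pass the test. The test was limma's moderated comparison over all 18132 genes at an adjusted p under 0.05, by which 72.5% of all genes were called, 45.4% rising and 27.1% falling. Both directions were common on these arrays, and nothing particular to the 10 genes is read from their 3 rises and 6 falls. The median change of the 10 genes was -0.33, beside 0.16 for all genes. By signal, 1 and 2 of the 10 lie in the dimmest and the second bin, where the median change was 0.29 and 0.35. The third and the brightest bin, with medians of -0.09 and -0.15, hold 3 and 4. The 3 CSF3 arrays and the 3 Ctrl arrays did not overlap for any of the 10 genes, which was so for 76.2% of all genes. No member reached a change of 1 in size at this threshold, as 0.645% of all genes did upward and 3.37% downward. The RNA is that of whole cultures, in which fewer cells with a transcript and less of it per cell cannot be told apart.

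**Figure D1:**
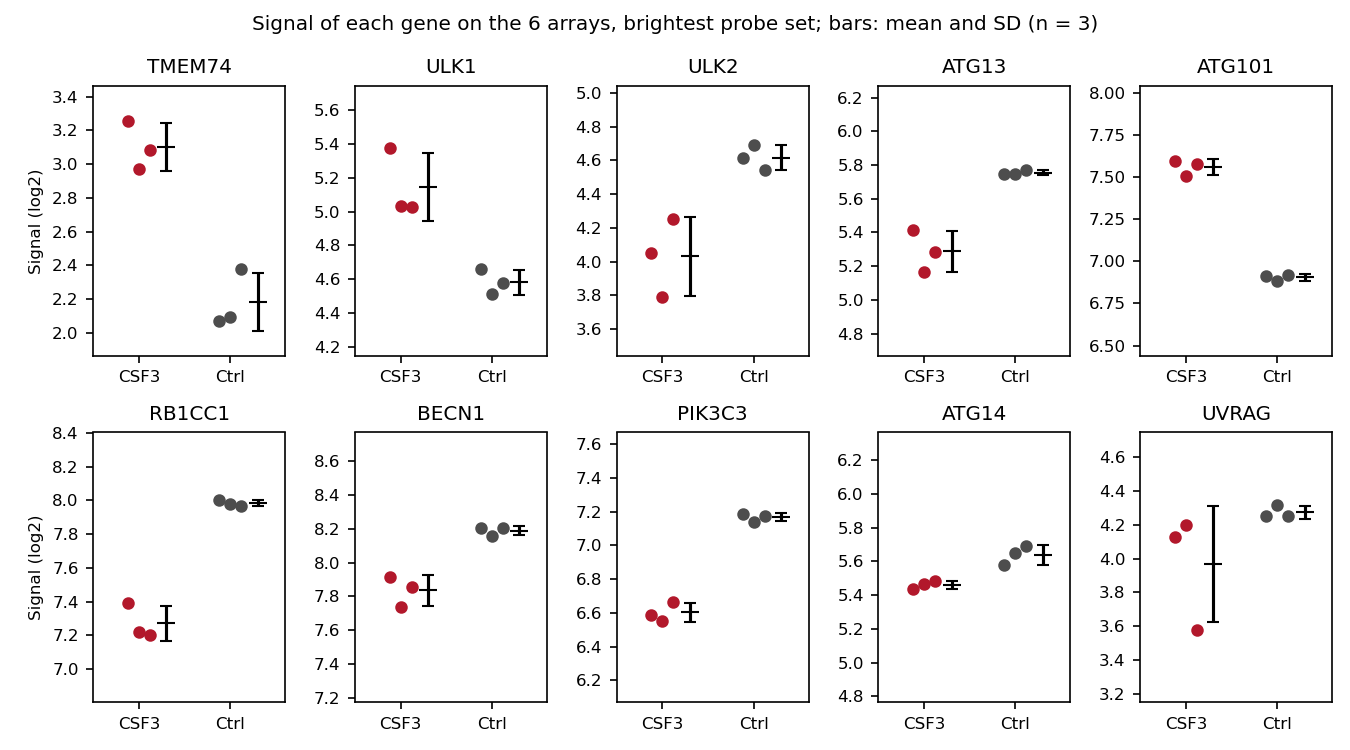
Log2 signal of each gene's brightest probe set on the 6 arrays (red, CSF3; grey, Ctrl), with the mean and SD of 3 arrays as bars; all panels span the same range of 1.6 log2 units. CSF3 arrays lie above Ctrl arrays for TMEM74, ULK1 and ATG101 and below them for the other 7 genes, with the 2 groups closest for UVRAG.

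The upstream sequence of 7 of the 10 genes was matched by symbol in a RefSeq promoter table of GRCh38.p14, all but TMEM74, RB1CC1 and UVRAG. Since the series' title names p65, the 250 bases before the annotated start were searched on both strands for the NF-κB consensus motif, and also for the E-box CACGTG, which TFEB and MYC bind, and the GC box GGGCGG, which SP1 binds. Of 35116 promoters in all, 10.0% held the NF-κB motif, 6.3% the E-box and 42.6% the GC box. A match describes letters and shows no binding. The sequences below are those of the 2 genes that rose and of the 3 that hold an NF-κB motif or an E-box, 5′ to 3′ on the strand of the gene, with every match in capitals (a GC box on the opposite strand reads CCGCCC).
ULK1, chr12:131894372-131894621, plus strand, GC boxes in capitals: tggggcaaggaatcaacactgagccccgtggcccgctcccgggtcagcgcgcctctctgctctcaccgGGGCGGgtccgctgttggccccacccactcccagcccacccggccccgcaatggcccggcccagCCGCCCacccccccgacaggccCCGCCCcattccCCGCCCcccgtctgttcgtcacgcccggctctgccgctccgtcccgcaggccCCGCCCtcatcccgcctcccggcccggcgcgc
ATG101, chr12:52069728-52069977, plus strand, GC boxes in capitals: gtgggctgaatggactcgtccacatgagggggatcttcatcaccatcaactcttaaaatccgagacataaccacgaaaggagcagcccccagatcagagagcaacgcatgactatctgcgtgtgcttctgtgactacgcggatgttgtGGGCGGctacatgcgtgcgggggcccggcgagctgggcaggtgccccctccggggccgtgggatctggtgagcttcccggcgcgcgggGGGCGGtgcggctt
BECN1, chr17:42823880-42824129, minus strand, NF-κB motif in capitals: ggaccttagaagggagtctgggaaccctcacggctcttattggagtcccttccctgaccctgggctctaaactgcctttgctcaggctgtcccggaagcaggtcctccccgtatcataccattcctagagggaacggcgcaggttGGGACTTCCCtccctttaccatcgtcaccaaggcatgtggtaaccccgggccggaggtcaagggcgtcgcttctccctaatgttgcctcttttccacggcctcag
PIK3C3, chr18:41954984-41955233, plus strand, NF-κB motif and then a GC box in capitals: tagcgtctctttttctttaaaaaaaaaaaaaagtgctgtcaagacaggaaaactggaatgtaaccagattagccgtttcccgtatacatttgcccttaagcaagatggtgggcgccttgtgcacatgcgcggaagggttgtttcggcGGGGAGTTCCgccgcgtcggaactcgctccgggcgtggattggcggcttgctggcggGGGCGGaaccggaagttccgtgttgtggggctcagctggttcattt
ATG14, chr14:55411831-55412080, minus strand, E-box in capitals: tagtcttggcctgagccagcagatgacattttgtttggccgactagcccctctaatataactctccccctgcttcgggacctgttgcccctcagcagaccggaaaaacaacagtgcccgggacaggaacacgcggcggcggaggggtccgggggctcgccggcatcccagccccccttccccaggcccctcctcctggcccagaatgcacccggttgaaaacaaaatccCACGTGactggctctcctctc

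The NF-κB motif stood in BECN1 at 105 to 96 bases before the start, as GGGACTTCCC, and in PIK3C3 at 103 to 94 bases, as GGGGAGTTCC. Both of these genes fell on the CSF3 arrays. ULK1 and ATG101, which rose, held no NF-κB motif or E-box in this window. They held 5 and 2 GC boxes, while PIK3C3, which fell, held 1. The GC content of ULK1 and ATG101 was 78.0% and 62.8%. Among the genes that fell it was 76.0% in ULK2, 62.0% in ATG14, 58.8% in BECN1, 53.6% in PIK3C3 and 47.2% in ATG13, so the ranges overlapped. The E-box of ATG14 lay 21 to 16 bases before the start. The windows of ULK2 and ATG13, which fell, held none of the 3 motifs.

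TMEM74, on its single probe set, gave signals of 3.26, 2.97 and 3.09 on the CSF3 arrays, against 2.07, 2.09 and 2.38 on the Ctrl arrays. The lowest CSF3 array stood above the highest Ctrl array, and one Ctrl array was higher than the other 2. The change of 0.92 ± 0.11 (SE, limma adjusted p = 0.000272) ranked 186th of all genes from the top and was the largest in size of the 10 as deposited. Under quantile normalization ATG101 (0.87) and ULK1 (0.74) exceeded TMEM74 (0.73), and under cyclic loess ATG101 (0.87) exceeded it (0.70). TMEM74 lies in the dimmest of the 4 bins of genes, where 63.5% rose. The median change of that bin was 0.29. Above the median change of all genes, TMEM74 rose by 0.76 as deposited, and by 0.60 after quantile normalization and after cyclic loess. Cyclic loess is meant to remove shifts that depend on signal, but whether it did so in the dimmest bin was not tested. No fold is given, since without detection calls either group could lie at background.

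The 5 genes whose profile over the 6 arrays came closest to that of TMEM74, by the root mean square difference after centring each gene on its mean, were TRIM6 (0.059), OR51F2 (0.067), RIPK4 (0.067), CMTM5 (0.077) and ZNF844 (0.086). They were picked from all genes for likeness, so this describes 6 arrays that share their 2 groups and scaling. Among the autophagy initiation genes ATG101 (0.17) and ULK1 (0.22) were nearest, and each of the others differed by 0.56 to 0.83.

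Within the ULK1 complex the kinases moved in opposite directions. ULK1 read 5.38, 5.03 and 5.03 on CSF3 arrays, against 4.66, 4.51 and 4.57 on Ctrl arrays. The first CSF3 array was the highest, and the groups stayed apart without it. ULK1 rose 1.48-fold (0.56 ± 0.10, limma adjusted p = 0.00222) on its only probe set. ULK2, the related kinase, read 4.05, 3.79 and 4.26 on CSF3 arrays, against 4.61, 4.69 and 4.54 on Ctrl arrays, with the CSF3 arrays more widely spread. It fell by 0.58 ± 0.12 (limma adjusted p = 0.00311). Of its 6 probe sets 4 fell, by 0.58 to 0.88, while the fourth and the sixth in brightness gave 0.07 ± 0.07 and -0.02 ± 0.07 and did not pass (limma adjusted p = 0.436 and 0.83). After quantile normalization the sixth fell by 0.20 and passed, and the fourth changed by -0.09. The sixth averaged only 1.59 on CSF3 arrays and 1.61 on Ctrl arrays, and without detection calls it could lie at background.

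ATG101, whose protein binds and stabilises ATG13, had 7.60, 7.51 and 7.58 on CSF3 arrays and 6.91, 6.88 and 6.92 on Ctrl arrays. The gap between groups was many times the spread within them. ATG101 rose 1.57-fold (0.65 ± 0.05, limma adjusted p = 5.38e-05), the smallest p of the 10, in the brightest bin of genes, where 22.8% rose. It has 1 probe set. ATG13, the adaptor that ATG101 binds, had 5.41, 5.17 and 5.28 on CSF3 arrays and 5.75, 5.74 and 5.77 on Ctrl arrays. It fell by 0.47 ± 0.07 (limma adjusted p = 0.000937), and its other probe sets fell by 0.27 ± 0.07 and 0.74 ± 0.17 (limma adjusted p = 0.0106 and 0.00667). With quantile normalization the first of these became -0.04 and did not pass (limma adjusted p = 0.641).

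RB1CC1, the scaffold, showed the largest fall of the 10 as deposited, though ULK2 fell more after cyclic loess (by 0.55, against 0.51 for RB1CC1) and without CSF3 replicate 3 (by 0.70, against 0.68). It had 7.39, 7.22 and 7.20 on CSF3 arrays and 8.004, 7.98 and 7.97 on Ctrl arrays, a change of -0.71 ± 0.06 (limma adjusted p = 9.45e-05) to 0.610 of the Ctrl signal. The second probe set had 5.90, 5.997 and 5.88 on CSF3 arrays and 6.71, 6.75 and 6.72 on Ctrl arrays, a change of -0.80 ± 0.06 (limma adjusted p = 3.5e-05). Both probe sets thus separated the groups without overlap. RB1CC1 lies in the brightest bin of genes, where 50.2% fell.

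In the PI3KC3 complexes 3 of 4 genes fell on their brightest probe set, where 27.1% of all genes fell. By signal, 50.2% of genes fell in the brightest bin, which holds PIK3C3 and BECN1. In the next bin, with ATG14, 43.3% fell, and in the bin of UVRAG 13%. PIK3C3, the lipid kinase, had 6.59, 6.55 and 6.67 on CSF3 arrays and 7.19, 7.14 and 7.18 on Ctrl arrays. It fell by 0.56 ± 0.05 (limma adjusted p = 0.000117) on its only probe set. BECN1 had 7.92, 7.74 and 7.85 on CSF3 arrays and 8.20, 8.16 and 8.21 on Ctrl arrays, and fell by 0.35 ± 0.06 (limma adjusted p = 0.00179). The groups were apart, though by less than for PIK3C3. Of the 6 BECN1 probe sets 5 fell, by 0.35 to 0.86. The second brightest had 7.31, 7.49 and 7.42 on CSF3 arrays and 7.25, 7.20 and 7.29 on Ctrl arrays, a change of 0.16 ± 0.07 that did not pass as deposited (limma adjusted p = 0.0685) and passed after quantile normalization at 0.37 (limma adjusted p = 0.00402). Of the 6, 4 end in _s_at or _x_at, endings that Affymetrix gives to sets that may read more than 1 transcript. The other 2 gave 0.16 and -0.46.

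ATG14, the Beclin 1 partner for autophagosome formation, has no settled direction. Its brightest probe set had 5.43, 5.47 and 5.48 on CSF3 arrays and 5.58, 5.65 and 5.69 on Ctrl arrays, and fell by 0.18 ± 0.05 (limma adjusted p = 0.0203). The change was 0.07 after quantile normalization (limma adjusted p = 0.277) and 0.03 after cyclic loess (limma adjusted p = 0.699). The second probe set fell by 0.54 ± 0.08 (limma adjusted p = 0.000629), whereas the third and the fourth rose by 0.45 ± 0.09 and 0.25 ± 0.09 (limma adjusted p = 0.00281 and 0.035). The call of the fourth was lost in 11 of 15 alternatives, among them quantile normalization (0.09, limma adjusted p = 0.399), cyclic loess (0.04, limma adjusted p = 0.749) and 5 of the 6 fits without 1 array, all but the one without Ctrl replicate 3. The third had 4.70, 4.78 and 4.59 on CSF3 arrays and 4.10, 4.34 and 4.30 on Ctrl arrays, so opposite probe sets each separated the groups. On the deposited scale ATG14 was the only one of the 6 members with several probe sets that had calls in both directions. Of the 11734 genes with several probe sets, 14.5% had such calls.

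UVRAG had 4.13, 4.20 and 3.58 on CSF3 arrays and 4.25, 4.32 and 4.25 on Ctrl arrays. The third CSF3 array stood well below the other 2. The change of -0.30 ± 0.15 did not pass (limma adjusted p = 0.111), with a 95% interval from -0.67 to 0.06, and it was -0.11 without that array. Its other probe sets gave -0.23 ± 0.09, -0.32 ± 0.11 and -0.31 ± 0.08 (limma adjusted p = 0.0518, 0.0374 and 0.0109), of which the second lost its call in 8 of 15 alternatives. The 4 estimates ran from -0.23 to -0.32, and the mean of the 4 fell by 0.29 (limma adjusted p = 0.000994).

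Over all 29 probe sets, 5 rose, 19 fell and 5 did not pass, in a fit over the 44988 single-gene probe sets in which 65.5% were called, 36.7% rising and 28.8% falling. The groups did not overlap for 25 of the 29, against 70.8% of all. In the ULK1 complex 2 of 13 probe sets rose and 9 fell, and in the PI3KC3 complexes 2 of 15 rose and 10 fell. The CSF3 arrays with these falls also had the wider GAPDH and ACTB gaps (0.682 and 1.94, against 0.306 and 1.34 on Ctrl arrays), whose part in the falls was not tested.

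**Figure D2:**
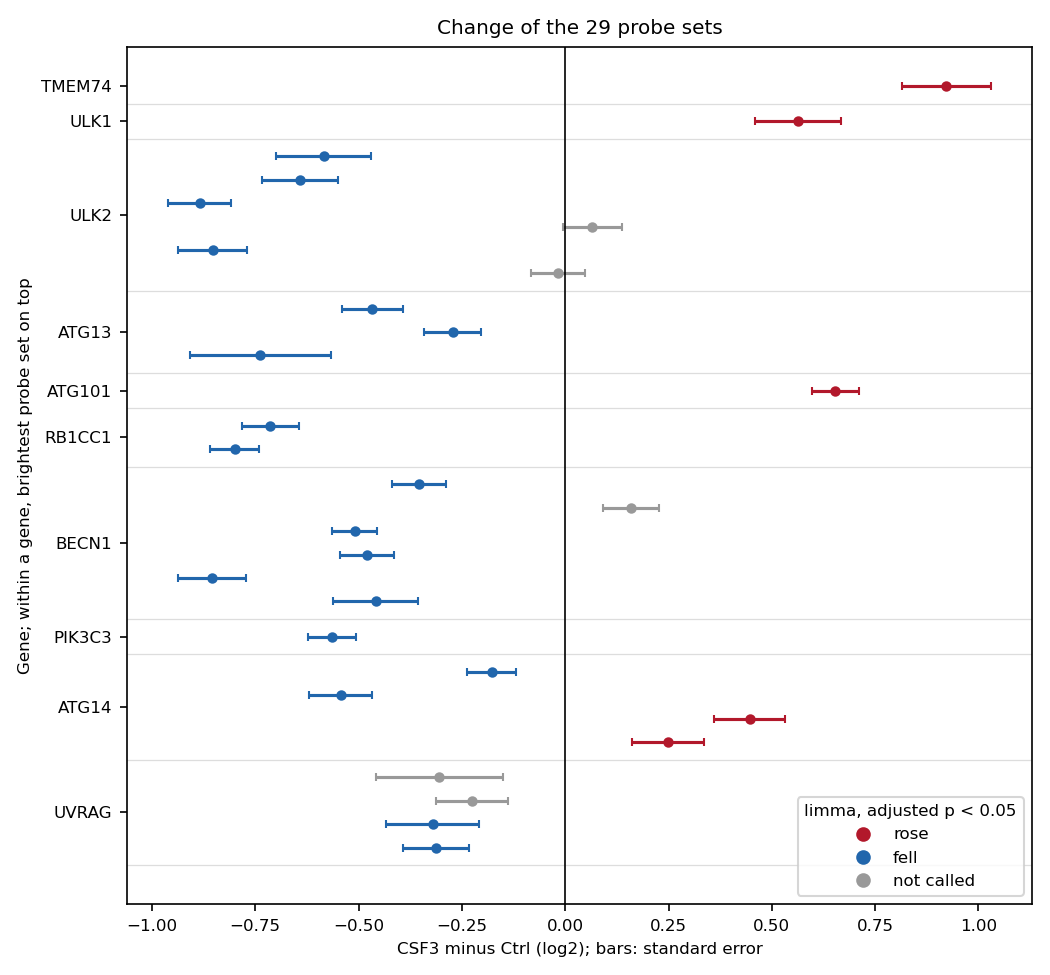
Change (CSF3 minus Ctrl, log2, with its standard error) of the 29 probe sets by gene, brightest on top, coloured by the limma call over 44988 probe sets. RB1CC1, ATG13 and UVRAG probe sets all lie below 0, those of ATG14 lie on both sides, and single sets of ULK2 and BECN1 lie above 0 without passing.

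**Figure D3:**
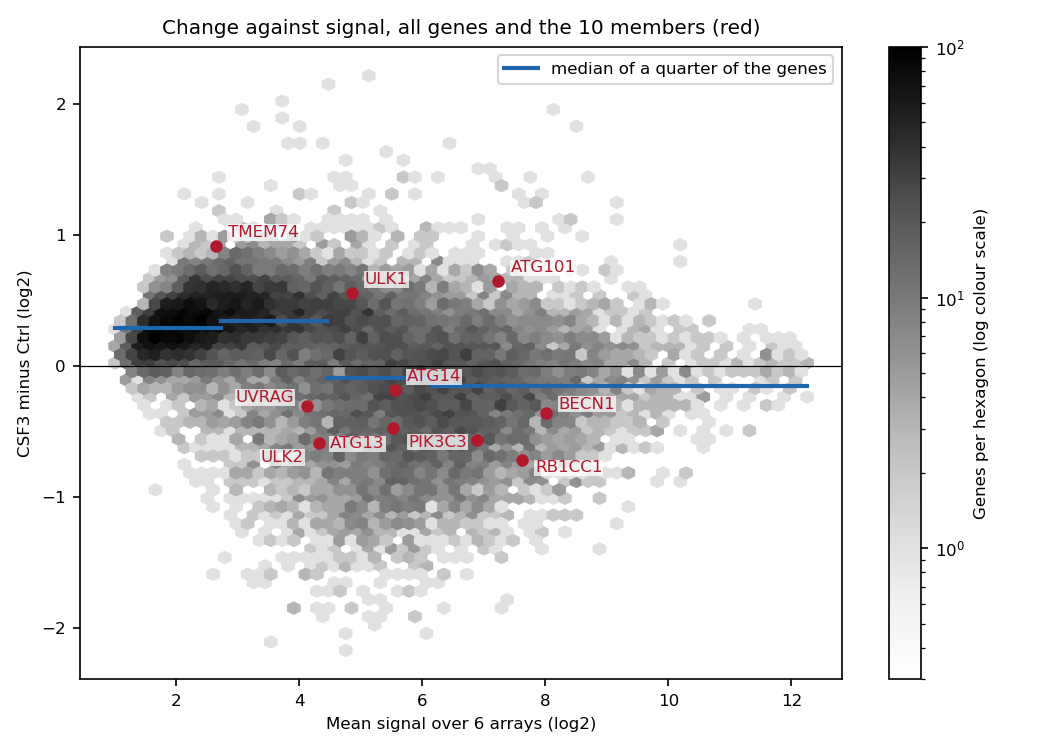
Change against mean signal (both log2) of the 18132 genes, with the number of genes per hexagon in grey and the median change of each of the 4 bins of genes by signal as blue lines. The medians are 0.29, 0.35, -0.09 and -0.15; TMEM74, ULK1 and ATG101 lie above them and the other 7 genes lie below them.

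On the brightest probe set of each gene, the division between rising and falling members held when arrays were scaled in other ways, apart from ATG14. Under quantile normalization TMEM74, ULK1 and ATG101 rose by 0.73 ± 0.11, 0.74 ± 0.10 and 0.87 ± 0.05 (limma adjusted p = 0.00146, 0.000831 and 3.06e-05). RB1CC1, ULK2 and PIK3C3 then fell by 0.53 ± 0.06, 0.48 ± 0.13 and 0.34 ± 0.05, and ATG13 and BECN1 by 0.22 ± 0.07 and 0.19 ± 0.05, with limma adjusted p-values from 0.000269 to 0.0273. The rises of ULK1 and ATG101 were thus larger than as deposited, and the falls of ATG13 and BECN1 were smaller. After cyclic loess the fall of BECN1 was 0.16 ± 0.05 (limma adjusted p = 0.0376). None of these scalings took the spiked controls as its reference.

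**Figure D4:**
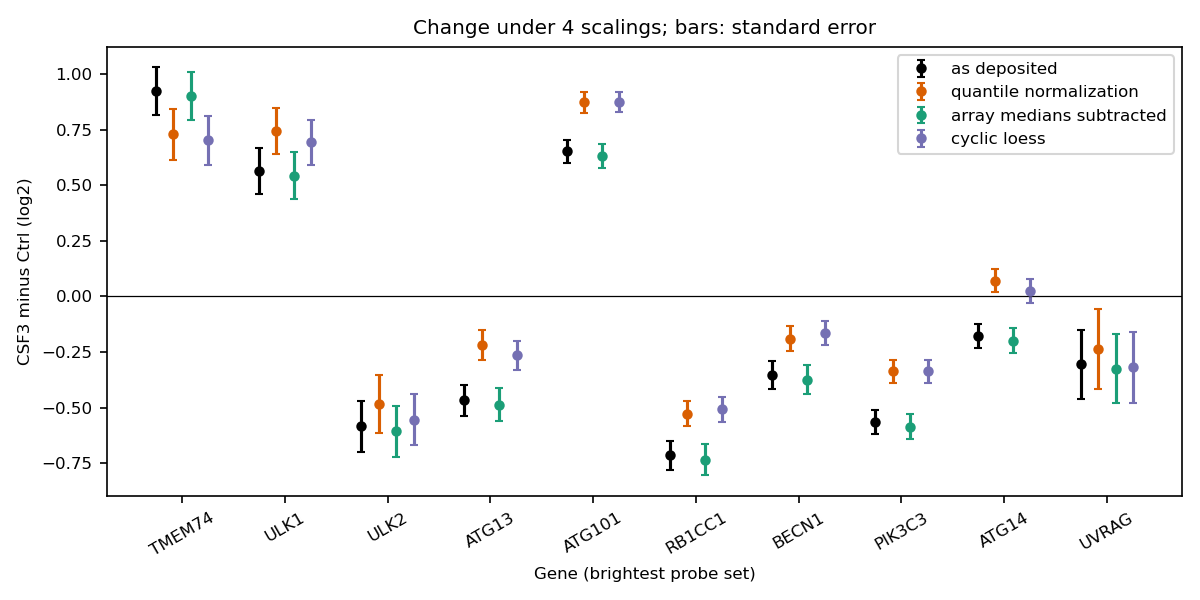
Change of each gene's brightest probe set (CSF3 minus Ctrl, log2, with its standard error) as deposited and under 3 other scalings. TMEM74, ULK1 and ATG101 stay above 0 and 6 genes stay below it under all 4, while ATG14 crosses 0 under quantile normalization and cyclic loess.

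Other genes around the initiation step, 45 in 8 lists, also went both ways, with 9 higher, 21 lower and 15 not called, and a median change of -0.15, in the fit where 45.4% of all genes rose and 27.1% fell. After quantile normalization 14 were higher and 11 lower, where 39.2% of all genes rose and 20.1% fell. The counts of each list below are read against the same shares of all genes. Among 7 further partners of PI3KC3, 2 rose and 4 fell. PIK3R4, which encodes the pseudokinase VPS15 that holds VPS34, had 4.58, 4.58 and 4.60 on CSF3 arrays and 5.31, 5.17 and 5.26 on Ctrl arrays, and fell by 0.66 ± 0.06 (limma adjusted p = 6.96e-05). NRBF2, a subunit that joins the ATG14 form, rose by 0.36 ± 0.06 (limma adjusted p = 0.00146). RUBCNL, which encodes the autophagosome maturation factor Pacer, rose by 0.62 ± 0.07 (limma adjusted p = 0.000249). The mean of its 5 probe sets rose by 0.35 (limma adjusted p = 0.000507). RUBCNL lies in the second bin by signal, where 63.7% of genes rose and the median change was 0.35.

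Of the 7 AMPK subunits, the energy sensor that activates ULK1, 4 rose and 2 fell. The catalytic subunit genes PRKAA1 and PRKAA2 rose by 0.59 ± 0.07 and 0.85 ± 0.12, while the regulatory PRKAG1 fell by 0.55 ± 0.05 (highest limma adjusted p of the 3, 0.000649). The probe sets of PRKAA1 ranged from -0.64 to 0.59, and their mean change was 0.03 (limma adjusted p = 0.668). Of 9 genes of mTORC1, which inhibits ULK1, and of its TSC and RHEB switch, 1 rose and 5 fell. MTOR had 4.96, 4.82 and 5.18 on CSF3 arrays and 5.94, 5.86 and 6.05 on Ctrl arrays, and fell by 0.96 ± 0.10 (limma adjusted p = 0.000161). TSC1, which restrains RHEB, fell by 1.08 ± 0.07 (limma adjusted p = 2.6e-05) on its brightest probe set, but its probe sets ran from -1.08 to 0.23 and their mean fell by 0.38 (limma adjusted p = 0.000289). The probe set mean of MTOR fell by 0.60 and that of PRKAA2 rose by 0.47 (limma adjusted p = 3.81e-05 and 0.000351). RHEB, the GTPase that activates mTORC1, rose by 0.36 ± 0.06 (limma adjusted p = 0.00111), though the mean of its 4 probe sets changed by -0.02 (limma adjusted p = 0.776).

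Of 4 BCL2 family genes whose proteins bind Beclin 1, 3 fell. MCL1 fell by 0.33 ± 0.05 (limma adjusted p = 0.000895) and BCL2L2 by 0.37 ± 0.12 (limma adjusted p = 0.027). BCL2L2 did not pass after quantile normalization or cyclic loess (-0.13 in both, limma adjusted p = 0.357 and 0.338), on the mean of its probe sets (-0.09, limma adjusted p = 0.0621), or in 5 of the 6 fits without 1 array, all but the one without CSF3 replicate 1. BCL2L1, which encodes BCL-XL, fell by 0.14 ± 0.05 (limma adjusted p = 0.0355), and after quantile normalization it gave 0.03 (limma adjusted p = 0.602).

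In the ATG12 conjugation machinery, which helps attach LC3 to the membrane, 2 of 7 rose and 3 fell. ATG7, the activating enzyme, fell by 0.95 ± 0.09 (limma adjusted p = 0.000117), and by 0.56 on the mean of its probe sets (limma adjusted p = 1e-04). ATG12 fell by 0.61 ± 0.06 (limma adjusted p = 0.000135) on its brightest probe set, and its other one gave 0.68. ATG16L2 fell by 0.38 ± 0.08 (limma adjusted p = 0.00425). It did not pass under quantile normalization at -0.12, cyclic loess at -0.16 or on the mean of its probe sets at -0.0026 (limma adjusted p = 0.196, 0.106 and 0.977). ATG16L1, the binding partner of TMEM74, rose by 0.28 ± 0.08 (limma adjusted p = 0.0178), while its second probe set gave -0.72. ATG16L1 lies outside the rule for naming genes and was chosen after its value was seen.

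Of 5 phosphatases that remove PI3P, 1 fell: MTMR1, by 0.70 ± 0.07 (limma adjusted p = 0.000155), and by 0.24 on the mean of its probe sets (limma adjusted p = 0.00154). MTM1 and MTMR2 gave -0.14 ± 0.09 and -0.20 ± 0.11 without passing (limma adjusted p = 0.16 and 0.129). The probe sets of MTMR2 were all negative, from -0.59 to -0.20, and their mean fell by 0.44 (limma adjusted p = 9.09e-05). The 3 genes of the C9orf72 complex, a partner of the ULK1 complex, fell on the deposited scale: SMCR8 by 0.82 ± 0.07, C9orf72 by 0.33 ± 0.07 and WDR41 by 0.25 ± 0.06 (highest limma adjusted p, 0.00714). After quantile normalization C9orf72 gave -0.12 and WDR41 -0.04 and neither passed (limma adjusted p = 0.13 and 0.568). Nor did they after cyclic loess (limma adjusted p = 0.157 and 0.687), while SMCR8 passed under both. On the mean of its probe sets SMCR8 fell by 0.44, C9orf72 by 0.37 and WDR41 by 0.46 (highest limma adjusted p, 0.000424). The probe sets ran from -0.82 to 0.32 for SMCR8, from -0.80 to 0.06 for C9orf72 and from -0.82 to -0.25 for WDR41. The relatives TMEM74B, ULK3 and ULK4 did not pass, with changes of -0.15 ± 0.06, 0.11 ± 0.07 and 0.27 ± 0.16 (limma adjusted p = 0.0546, 0.224 and 0.166). ULK3 passed upward after quantile normalization (0.33, limma adjusted p = 0.00676) and cyclic loess (0.28, limma adjusted p = 0.0144) and downward on the mean of its probe sets (-0.34, limma adjusted p = 0.00374), so its direction is not settled. The mean of ULK4's probe sets rose by 0.29 (limma adjusted p = 0.0125), and TMEM74B passed in that fit at -0.15 (limma adjusted p = 0.0353). The difference between TMEM74 and TMEM74B in their response was not tested. Of the 24 genes that rank among the 3 smallest p-values of their list, 22 have several probe sets, and 14 of those had probe set changes of both signs.

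**Figure D5:**
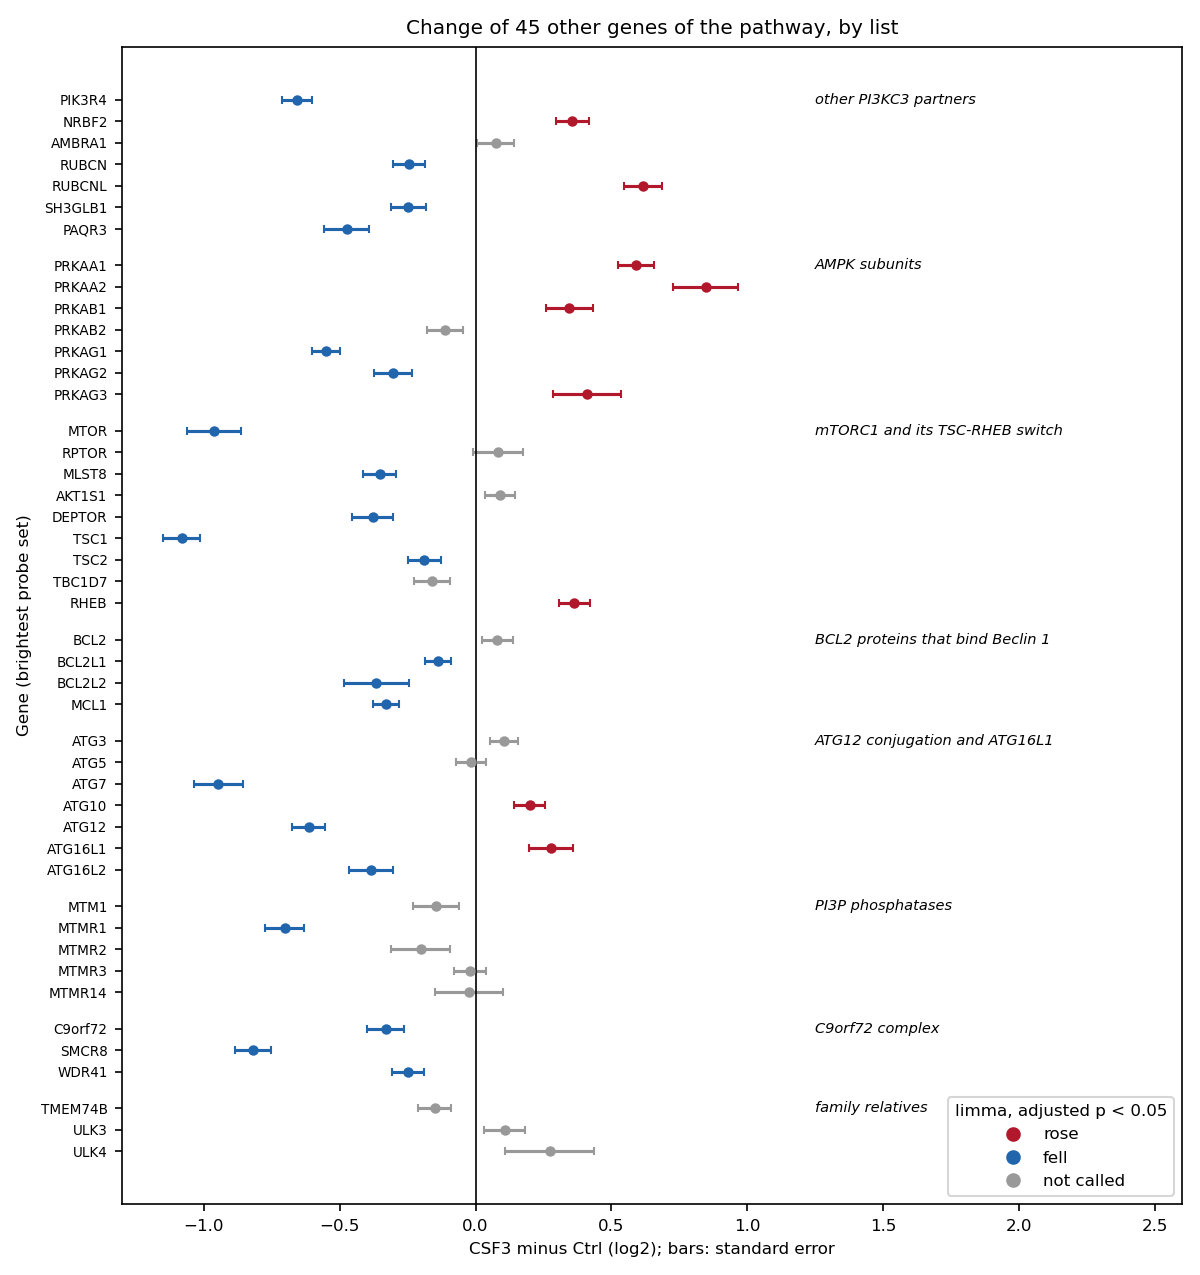
Change of the 45 other genes (CSF3 minus Ctrl, log2, with its standard error) by list, on each gene's brightest probe set and coloured by the limma call over 18132 genes. The 9 rises include 4 AMPK subunits, of which PRKAA1, PRKAB1 and PRKAG3 also had probe sets below 0, down to -0.64, -0.48 and -0.07. TSC1, at -1.08 on its brightest probe set and -0.38 on the mean of its probe sets, lies lowest.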

How the data were processed

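Biotin-labelled RNA was measured on 6 Affymetrix arrays, 3 CSF3 and 3 Ctrl, per the labels. For each array the authors deposited a log2 value, as judged from its range, of every one of 49395 probe sets. How these were background corrected, summarised and normalized, and the log base, the sources do not give, and another base would change every fold but no test. The number of arrays limits the precision.

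Platform annotation gave 44988 probe sets 1 gene, 1832 several and 2473 none, and 102 are controls. Symbols were checked through Entrez identifiers against RefSeq (GRCh38.p14), which found 44961. The probe set with the highest mean stood for its gene, with no filter. CSF3 minus Ctrl was fitted over 18132 genes, and separately over all single-gene probe sets, with lmFit and eBayes of limma 3.58.1 (R 4.3.3) and Benjamini-Hochberg adjustment at 0.05, after tests on simulated data. No set test was run.

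Members and lists were chosen with earlier results of these data known. Named are the 10 members, CSF3, the 3 genes of smallest p in each list and the 5 profiles nearest TMEM74. Outside this rule, ATG16L1 and the marker and control genes were named after their values were seen. Alternatives were quantile normalization, array medians, cyclic loess, leaving out the 30% dimmest genes, probe set means, trended robust eBayes, array weights, a replicate block, Student's test, a least change of 1 and leaving out each array, with the probe set of each gene kept.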

Additional observations from a re-analysis of the deposited data

Results flagged for a closer look

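Control probe sets, which enter no comparison of genes, differed between the groups. The median of 18 hybridisation control probe sets was 8.36 ± 0.05 on CSF3 arrays and 6.82 ± 0.07 on Ctrl arrays (SD, n = 3 each), a difference of 1.53. The median of 24 poly-A control probe sets was 5.61 ± 0.03 and 4.09 ± 0.25, a difference of 1.52. Both exceed the largest change among the autophagy initiation genes, the 0.92 of TMEM74.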

How the results depend on the processing

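In the fits over genes, each of the 3 rises and 6 falls except ATG14 kept its direction under every setting that tested it. ULK1 and ATG101 passed under all settings but the least change of 1, and so did TMEM74 where it was tested. With the least change of 1 limma called 0 members in either direction, by construction, since their changes are under 1 (TMEM74, 0.92). That setting left 117 rises and 611 falls among all genes, 0 and 0 among the 29 probe sets, and 0 and 1 among the other pathway genes. Without the 30% dimmest genes, which removes TMEM74, 4767 genes rose, and rises were 49.4% of calls, against 62.6% with all genes. Among other pathway genes 14 rose and 11 fell after quantile normalization, and 11 fell after cyclic loess. ATG14 turned to 0.072 and 0.026 under those scalings, and the fourth ULK2 probe set to -0.095 and -0.15, TMEM74B to 0.084 and 0.077, and BCL2L1 to 0.032 and 0.051. MTMR2 turned to 0.019 under quantile normalization. Probe set means gave 0.034 for ATG12, -0.015 for RHEB and -0.34 for ULK3. The sixth ULK2 probe set ranged from -0.067 to 0.014, positive at 0.0039 and 0.014 without Ctrl replicates 1 and 3. Causes were not tested. Without 1 array at a time, 6948 to 7940 genes rose and 4428 to 4951 fell, with 3 members higher and 5 to 7 lower, 4 to 5 member probe sets higher and 17 to 19 lower, and 7 to 9 other pathway genes higher and 18 to 22 lower. TMEM74 ranged from 0.85 to 1.02, and ATG14 did not pass without Ctrl replicate 2 or 3 (limma adjusted p = 0.0647 and 0.0819). UVRAG ranged from -0.42 to -0.11 and passed without CSF3 replicate 2 (limma adjusted p = 0.049). Same-numbered arrays deviated together with r of 0.03 to 0.04 only, though each best with its own number. With 3 arrays a group this cannot decide whether the numbers pair the arrays. The replicate block ended no member's call: with it 8086 genes rose and 4782 fell, and 3 members rose and 6 fell.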
